A study of Homo sapiens with 16 samples.

Results

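Oncofetal genes are expressed in the fetal liver, silenced in the adult organ and switched on again in many liver tumours. The 8 genes described here are 7 of that kind, AFP, GPC3, SOX4, LIN28B, IGF2BP1, IGF2BP3 and PEG10, together with ALB, the adult counterpart of AFP. They were chosen by name, and all 8 were found among the 16558 genes measured and among the 13095 genes tested, which had a mean level of 1 per-million unit or more. A per-million unit is a gene's reads as a share of its library's total, after the authors' scaling between libraries.

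RNA came from HepG2, an established line from a human liver tumour. Prime editing was used at PNPLA3 I148M, an isoleucine-to-methionine variant of a lipid droplet protein. Clones are grouped here by their genotype at this site. There were 3 GG clones (numbers 1, 2 and 6), 3 GC clones (2, 3 and 4) and 2 CC clones (1 and 3), written below as GG1, GC2, CC3 and so on. Each clone gave 1 untreated library and 1 library after palmitic acid, a saturated fatty acid, at 250 µM for 48 h, which makes 16 libraries and 6 groups. Single-library labels run from 48 to 55 h in sample order, and the 48 h of the protocol was used. Depth was 9314342 to 15777669 reads per library, with 15662 to 16206 genes detected. A clone descends from 1 cell, so a difference between genotypes is read against the spread between clones, and n counts clones. The sources used here do not give the genotype of the line before editing or what the untreated cells received. Which clones carry an edit is therefore not known here, and no library is labelled as the unedited parent line.

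In the liver, AFP and albumin are secreted carrier proteins made from a pair of adjacent genes, and the change from AFP to albumin marks the maturation of fetal liver cells. LIN28B is an RNA-binding protein that blocks the maturation of let-7 microRNAs. The let-7 family in turn represses LIN28B, IGF2BP1, IGF2BP3 and other fetal genes through sites in their 3′ UTRs. GPC3 is a heparan sulfate proteoglycan of the cell surface, SOX4 a transcription factor of progenitor cells, and PEG10 an imprinted gene derived from a retrotransposon and expressed from the paternal copy.

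The link between 3 of the 8 genes and let-7 can be read from their sequences. The mature let-7a microRNA is shown first with its seed (bases 2 to 8) in capitals. Below it stands 1 stretch of 22 bases from the 3′ UTR of each gene with a matching site, CTACCTC, in capitals. The microRNA is from RefSeq (GRCh38.p14), the sites are from the longest 3′ UTR of each gene in GENCODE release 29 (GRCh38), and all are written 5′ to 3′.
hsa-let-7a-5p: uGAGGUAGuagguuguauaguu
LIN28B: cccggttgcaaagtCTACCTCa
IGF2BP1: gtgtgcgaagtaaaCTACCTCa
IGF2BP3: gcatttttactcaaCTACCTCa
The seed GAGGUAG was shared by 9 mature microRNAs of the family. LIN28B held 4 such sites in 4549 bases, and 0.243% of the 1237 genes with a 3′ UTR of like length held as many. IGF2BP1 held 4 sites in 6206 bases, against 0.725% of 690 genes of like length with as many, and IGF2BP3 held 1 site in 2153 bases, against 12.8% of genes of like length with a site. AFP, ALB, GPC3, SOX4 and PEG10 held none in the longest 3′ UTR, and 10.9% of 13837 genes held at least 1. A match is a description of the letters, and microRNAs were not measured here.

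AFP and ALB lie side by side on chromosome 4 in the same direction, ALB at 73397114 to 73421412 and AFP at 73431138 to 73456174 (GRCh38, plus strand). The 250 bases before the RefSeq start of each are shown because the pair is compared below. These stretches lie inside the spans just given, which are from GENCODE and begin before the RefSeq starts. Capitals mark 2 motifs searched on both strands: CCAAT or its reverse complement ATTGG, the CCAAT box, and TATAAA, the TATA box.
AFP, chr4:73435971-73436220: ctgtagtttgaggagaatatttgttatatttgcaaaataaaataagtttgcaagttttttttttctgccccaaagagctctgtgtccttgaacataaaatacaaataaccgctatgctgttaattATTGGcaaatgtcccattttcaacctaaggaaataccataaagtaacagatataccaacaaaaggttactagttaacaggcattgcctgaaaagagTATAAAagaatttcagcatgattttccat
ALB, chr4:73404037-73404286: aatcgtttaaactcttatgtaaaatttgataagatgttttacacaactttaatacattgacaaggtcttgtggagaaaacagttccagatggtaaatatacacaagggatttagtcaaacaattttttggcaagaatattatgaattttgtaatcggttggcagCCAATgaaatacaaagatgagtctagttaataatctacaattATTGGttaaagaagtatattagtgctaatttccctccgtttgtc
AFP held 1 CCAAT match, 125 bases before the start, and 1 TATAAA, 29 bases before it. ALB held 2 CCAAT matches, 86 and 44 bases before the start, and no TATAAA. Of 35116 promoters of the same length, 32.0% held CCAAT and 10.7% held TATAAA.

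Set per kilobase of exon, the mean levels over the 16 libraries ran in the order AFP, GPC3, PEG10, IGF2BP1, ALB, LIN28B, IGF2BP3 and SOX4. AFP stood at 3313 units per kilobase, GPC3 at 813, PEG10 at 486 and IGF2BP1 at 90.9. ALB followed at 70.8 units per kilobase, LIN28B at 19.8, IGF2BP3 at 12.1 and SOX4 at 3.16. The ranges of all neighbours in this order overlapped across libraries, although AFP was above GPC3 and IGF2BP3 above SOX4 in 16 of 16 libraries. GPC3 was above PEG10, and IGF2BP1 above ALB, in 12 of 16. By mean level before the division by length, AFP ranked 5, PEG10 12 and GPC3 19 among the 16558 genes.

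AFP, the main serum protein of the fetal liver, was among the most abundant transcripts, and its untreated level differed between clones rather than by genotype. Untreated AFP stood at 13306, 17486 and 5438 units in GG1, GG2 and GG6, at 6322, 14674 and 18692 units in GC2, GC3 and GC4, and at 16798 and 6843 units in CC1 and CC3. With palmitic acid it stood at 10535, 15074 and 4847 units in the GG clones, at 4998, 9478 and 12219 units in the GC clones, and at 13444 and 2595 units in the CC clones. Each genotype held at least 1 low clone, GG6, GC2 and CC3, so the untreated groups overlapped, and so did untreated and treated libraries. The clone averages ranged 3.85-fold, and 9.39% of tested genes had a range as wide. The treated library was below the untreated one in all 8 clones, and a change downward in all 8 clones was seen in 6.79% of tested genes.

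Changes were taken on log2 of the per-million value plus 0.5. The mean log2 change of AFP over genotypes was -0.54. In the fit with no clone term its standard error was 0.43 (limma, adjusted p = 0.810). With the clone as a block, which takes out the differences between clones, the error was 0.12 (limma, adjusted p = 0.0112), so the fall passed the test only when libraries were paired by clone. The change was -1.40 in CC3 and between -0.63 and -0.17 in the other 7 clones, and without CC3 the mean change with the block was -0.36 (adjusted p = 0.0360). As these are bulk samples, fewer cells that express a gene and less of its RNA per cell cannot be told apart.

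ALB, the main serum protein of the adult liver, was far below AFP in every library. Untreated ALB stood at 174, 807 and 213 units in GG1, GG2 and GG6, at 17.7, 221 and 328 units in GC2, GC3 and GC4, and at 151 and 179 units in CC1 and CC3. With palmitic acid it stood at 128, 820 and 172 units in the GG clones, at 20.6, 144 and 245 units in the GC clones, and at 105 and 99.2 units in the CC clones. GG2 was the highest and GC2 by far the lowest in both conditions, and untreated and treated libraries overlapped. ALB was lower with palmitic acid in 6 of 8 clones, and the exceptions were the clones at the ends of the range, GG2 (log2 change 0.02) and GC2 (0.21).

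The mean log2 change of ALB over genotypes was -0.40, with a standard error of 0.70 in the fit with no clone term (limma, adjusted p = 0.914) and 0.09 with the clone block (limma, adjusted p = 0.0107). Without CC3, whose change was -0.85, the mean change with the block was -0.35 and no longer passed (adjusted p = 0.0530). The ratio of AFP to ALB reads was 357 in untreated GC2 and 243 in treated GC2, and it was lowest in GG2, at 21.7 untreated and 18.4 treated. Over the 8 clone averages, the log2 levels of AFP and ALB correlated at r = 0.54 (Spearman 0.50). This correlation is a description over 8 clones that share the scaling of the libraries.

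SOX4, a transcription factor of the SRY-box family, was the lowest of the 8 genes, at 121 to 775 reads per library, and the one that rose with palmitic acid. Untreated SOX4 stood at 8.37, 14.3 and 19.5 units in GG1, GG2 and GG6, at 25.5, 10.4 and 9.90 units in GC2, GC3 and GC4, and at 14.4 and 10.5 units in CC1 and CC3. With palmitic acid it stood at 10.7, 18.3 and 24.7 units in the GG clones, at 52.7, 14.4 and 11.8 units in the GC clones, and at 26.0 and 24.1 units in the CC clones. The treated library was the higher one in all 8 clones, a pattern seen in 6.77% of tested genes, while untreated and treated levels overlapped between clones. GC2 was the highest clone in both conditions, the clone averages ranged 3.72-fold, and 9.99% of tested genes had a range as wide.

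The mean log2 change of SOX4 was 0.64, with a standard error of 0.33 with no clone term (limma, adjusted p = 0.672) and 0.09 with the clone block (limma, adjusted p = 0.00120). With the block, the change was 0.34 ± 0.14 (SE) in GG clones (limma, adjusted p = 0.285), 0.58 ± 0.14 in GC clones (adjusted p = 0.0733) and 1.00 ± 0.18 in CC clones (adjusted p = 0.0203). With the block, 0.840% of tested genes were called in GG, 1.54% in GC and 2.30% in CC clones. With a clone left out, the change of SOX4 in CC clones ran from 0.84 to 1.17, and its call was not kept in every fit. The 3 GG clones lay close together, at 0.33 to 0.35, whereas GC2 (1.03), CC1 (0.84) and CC3 (1.17) lay above the other 5 clones. The difference of the change between genotypes had an unadjusted p of 0.0442 with the block and did not pass the adjustment (limma F test, adjusted p = 0.998), as 0.00764% of tested genes did, so the genotypes were not shown to differ.

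The other 5 genes did not pass the test in either fit over all 8 clones. Of the 8 genes, 1 rose and 2 fell with the clone block, and over all tested genes 18.9% were called, 9.33% higher and 9.52% lower. With no clone term, none of the 8 and 0.0458% of tested genes were called, with 8.09% of tested genes at an unadjusted p under 0.05 and none of the 8 among them. The median change of the 8 genes was -0.07 on the log2 scale, against -0.01 over all tested genes. The count of tested genes behind the 18.9% moved with single clones, from 2469 to 1254 without CC3, 1448 without GC3, 1538 without GG1 and 3753 without CC1.

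GPC3, the cell-surface glypican used as a marker of liver cancer, was on in 7 clones and nearly off in the eighth. Untreated GPC3 stood at 2424, 2069 and 2379 units in GG1, GG2 and GG6, at 3144, 2869 and 9.50 units in GC2, GC3 and GC4, and at 2432 and 3104 units in CC1 and CC3. With palmitic acid it stood at 2574, 1742 and 2692 units in the GG clones, at 2963, 2608 and 11.8 units in the GC clones, and at 2201 and 2049 units in the CC clones. The GC4 libraries still held at least 118 GPC3 reads each, so the gene was detected there, and GC4 lay 227-fold below the median of the other 7 clone averages. The other 7 clones held 1742 to 3144 units. With GC4 set aside, the untreated GG clones were below the GC and CC clones, at 2424 against 2432 units for the nearest pair. In treated libraries the GG clones overlapped both other genotypes. On the averages of both libraries, GC2 and GC3 were above all GG and CC clones, while GG and CC clones overlapped. The share of tested genes with such orders after setting a clone aside was not counted.

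The range of GPC3 over the 8 clone averages was 275-fold, and 0.0153% of tested genes, 2 of 13095 with GPC3 itself, had a range as wide. The mean change of GPC3 with palmitic acid was -0.11 ± 0.08 (limma with clone block, adjusted p = 0.339). GC4 set the comparison between genotypes: GG clones were 2.34 ± 1.90 (SE) above GC clones on the log2 scale (limma on clone averages, adjusted p = 0.852), and -0.34 without GC4. GC minus CC clones was -2.42 ± 2.13 (adjusted p = 0.904), and 0.26 without GC4.

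GPC3 lies on chromosome X at 133535745 to 133985895, minus strand (GRCh38). Of the 5 tested genes within 1 Mb, PHF6, a chromatin protein gene, and MOSPD1 were lower in GC4 than in each of the other 7 clones, by -0.25 and -0.88 against the median of the others on the log2 scale. In GC4, 19.7% of all tested genes were below all other clones. HPRT1, a purine salvage enzyme gene in the same window, stood 0.30 above the median and within the range of the others. The paralog next to GPC3, GPC4, was at 0 to 0.675 units in all libraries and was not tested. GPC6, a glypican on another chromosome, stood at 64.2 to 65.1 units in GC4 and was low in CC3, at 1.28 and 1.74 units.

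ALB and PEG10 had single clones apart as well. GC2 lay 9.13-fold below the median of the other clone averages for ALB, and 0.275% of tested genes had a range as wide as that of ALB, which was 41.6-fold. Around ALB, 6 neighbours were tested in GC2: ANKRD17 was below all other clones (-0.23) and AFP within the range of the others (-1.07). RASSF6 was above all others (0.98) at a low level, with means of 2.20 units in GC2 and 0.886 in the other clones. AFM, the third gene of the albumin family at this locus, was at 0 to 0.238 units and was not tested. In GC2 8.82% of all tested genes were below, and 10.6% above, all other clones.

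PEG10, whose protein is needed in the placenta, had the largest share of its variance between clones of the same genotype among the 8 genes. Untreated PEG10 stood at 1474, 9940 and 535 units in GG1, GG2 and GG6, at 4385, 2327 and 2092 units in GC2, GC3 and GC4, and at 2678 and 782 units in CC1 and CC3. With palmitic acid it stood at 1581, 10701 and 691 units in the GG clones, at 6517, 2590 and 1896 units in the GC clones, and at 2715 and 1069 units in the CC clones. The GG clones held both the highest and the lowest clone, 16.9-fold apart, and 1.05% of tested genes had a range as wide. Of the variance of log2 PEG10 over the 16 libraries, 90.0% lay between clones of the same genotype and 1.49% within clones. Over tested genes the medians were 56.8% and 19.7%.

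The mean change of PEG10 with palmitic acid was 0.21 ± 0.09 (limma with clone block, adjusted p = 0.125), with a higher treated library in 7 of 8 clones and a lower one in GC4. With a clone left out, the mean change with the block ran from 0.14 to 0.28, the highest being without CC1. Whether PEG10 passed depended on the clone left out. PEG10 lies on chromosome 7 at 94656325 to 94669695, plus strand (GRCh38). In GG2, where PEG10 was 5.18-fold above the median of the other clones, 3 of 8 tested neighbours were above all other clones: CASD1 by 0.55 on the log2 scale, SGCE, the imprinted gene that shares the PEG10 promoter region, by 0.54, and PPP1R9A by 0.28. In GG2, 16.8% of all tested genes were above all other clones. BET1 and the paraoxonase genes PON1, PON2 and PON3 were within the range of the others.

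LIN28B was the member whose level followed genotype most closely. Untreated LIN28B stood at 210, 114 and 179 units in GG1, GG2 and GG6, at 74.1, 106 and 61.8 units in GC2, GC3 and GC4, and at 91.0 and 78.1 units in CC1 and CC3. With palmitic acid it stood at 231, 132 and 164 units in the GG clones, at 83.0, 110 and 68.6 units in the GC clones, and at 88.3 and 108 units in the CC clones. All 3 GG clones were above all 5 other clones in both conditions, while GC and CC clones overlapped. On clone averages, GG did not overlap GC clones for 12.5% of tested genes, and CC clones for 8.32%. The share of tested genes with GG apart from both was not counted. Of its variance, 70.9% lay between genotypes, against a median of 16.8% over tested genes. The clone averages ranged 3.37-fold, and 12.0% of tested genes had a range as wide.

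On clone averages, LIN28B was 1.02 ± 0.25 (SE) higher in GG than in GC clones on the log2 scale (limma, unadjusted p = 0.00374, adjusted p = 0.847) and 0.87 ± 0.28 higher in GG than in CC clones (unadjusted p = 0.0147, adjusted p = 1.000). GC and CC clones differed by -0.14 ± 0.28 (adjusted p = 0.949). None of the 3 contrasts passed the adjustment, and 0% of tested genes were called in any of them, with 5.51%, 0.771% and 4.08% at an unadjusted p under 0.05 and 22, 2 and 7 genes by DESeq2 on recovered reads. The GG against GC difference of LIN28B ran from 0.82 to 1.24 when each clone was left out. The change of LIN28B with palmitic acid was 0.14 ± 0.06 (limma with clone block, adjusted p = 0.156). With a clone left out, this change ran from 0.05 to 0.22, the highest being without CC1. Whether LIN28B passed depended on the clone left out.

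The paralog LIN28A was highest in CC1, at 77.6 units untreated and 48.2 treated, a clone in the lower group for LIN28B. It was lowest in GC4, at 2.82 and 1.22 units, which was also the lowest clone for LIN28B. LIN28A fell with palmitic acid by 0.55 on the log2 scale (limma with clone block, adjusted p = 0.0176), with higher treated values in 2 of 8 clones.

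The IGF2BP proteins bind messenger RNAs, among them IGF2 and MYC, and protect them from decay. IGF2BP1 was the steadiest of the 8 genes, with a range of 1.52-fold over clone averages, and 69.8% of tested genes had a range as wide. Its untreated level was 876 ± 154 units (SD, n = 3) in GG, 719 ± 86.3 (n = 3) in GC and 964 ± 113 (n = 2) in CC clones. Both CC clones were above all 3 GC clones, as for 25.7% of tested genes, and the difference of -0.41 ± 0.18 did not pass the test (limma on clone averages, adjusted p = 0.901). With palmitic acid IGF2BP1 changed by -0.04 ± 0.05 (limma with clone block, adjusted p = 0.678).

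IGF2BP3 ranged 1.55-fold over clone averages, and 66.9% of tested genes had a range as wide. Its untreated level was 97.4 ± 18.9 units (SD, n = 3) in GG, 120 ± 14.0 (n = 3) in GC and 99.5 ± 5.45 (n = 2) in CC clones. The untreated GG clones overlapped both other groups, and the untreated GC clones were just above the CC clones, at 104 against 103 units for the nearest pair. On clone averages and in treated libraries GC and CC clones overlapped. The share of tested genes with such an order in untreated libraries was not counted. Its change with palmitic acid was -0.11 ± 0.05 (limma with clone block, adjusted p = 0.179), with lower treated values in 7 of 8 clones. IGF2, the growth factor gene whose message these proteins were named for, stood at 51.4 to 332 units in 7 clones and at 2.79 and 1.63 units in GC2. In GC2, IGF2BP1 stood at 667 units untreated, the lowest of the untreated libraries next to 670 in GC4, and at 684 units treated. IGF2BP3 in GC2 stood at 104 and 93.5 units, within the range of the other clones in each condition.

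Across the 3 contrasts of genotypes on clone averages, groups did not overlap for 1 of the 8 genes between GG and GC (LIN28B), against 12.5% of tested genes. Between GG and CC they did not overlap for 2 (LIN28B and ALB), against 8.32% of tested genes, and between GC and CC for 1 (IGF2BP1), against 25.7% of tested genes. ALB was 1.13 ± 1.12 (SE) higher in GG than in CC clones on the log2 scale (limma, adjusted p = 1.000). AFP differed by -0.01 ± 0.62 between GG and GC clones (adjusted p = 0.998), SOX4 by -0.17 ± 0.48 (adjusted p = 0.953) and PEG10 by -0.48 ± 0.97 (adjusted p = 0.937). ALB was 1.52 ± 1.01 higher in GG than in GC clones (limma, adjusted p = 0.849). Between GG and GC clones, the standard errors of AFP, SOX4 and PEG10 exceeded the differences. Those of ALB and GPC3 were 1.01 and 1.90 beside differences of 1.52 and 2.34. With 2 or 3 clones a genotype, such errors limit what could be seen.

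The genes whose clone averages were most like those of each member were found over 8 clones among 10558 genes. PEG10 was closest to SARAF (r = 0.997, Spearman 0.98), AFP to TAF6L (0.986, Spearman 0.98) and GPC3 to GNG10 (0.986, Spearman 0.86), with GC4 apart from the 7 other GPC3 values. IGF2BP3 was closest to FBXO41 (0.976), IGF2BP1 to MRGBP (0.973), ALB to ADPGK (0.972), SOX4 to LMBRD1 (0.943) and LIN28B to SAMD1 (0.931). These are the highest of many correlations over few clones. Among the 8 genes themselves the closest pair was AFP and IGF2BP3 (r = 0.81, Spearman 0.76).

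Other genes of the same pathways were counted in lists of related genes, in the fit with the clone block, where 9.33% of tested genes rose and 9.52% fell. Of 16 tested oncofetal and progenitor genes, 1 rose and 4 fell, with a median of -0.05. SPINK1, a secreted trypsin inhibitor, rose by 0.77, and MDK, a heparin-binding growth factor, fell by 0.55, as did LIN28A. The other 2 that fell, named after their values were seen, were PEG3 and PLAG1. H19, the imprinted fetal transcript, stayed under 1 unit in all libraries.

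Of 22 tested genes of the let-7 pathway 4 rose and 1 fell, with a median of -0.03. Besides LIN28A, the genes with the smallest p were NRAS, a RAS oncogene that rose by 0.23, and ARID3B, which rose by 0.20, both in all 8 clones. CCND2 and HMGA1, named after their values were seen, rose by 0.23 and 0.36. DICER1 and DROSHA, the enzymes that cut microRNA precursors, were not among the genes called.

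Of 18 regulators of AFP and ALB transcription, 1 rose and 5 fell, with a median of -0.07. ZFHX3, a zinc finger repressor of AFP, rose by 0.35 ± 0.05 (SE) in all 8 clones (limma with clone block, adjusted p = 0.000830). ONECUT1, a liver transcription factor, fell by 0.78, and DBP, a clock-controlled activator of ALB, fell by 0.74, both in all 8 clones. CEBPB, CEBPA and HNF4A, named after their values were seen, changed by -0.46, -0.33 and -0.27.

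Of 16 genes of adult plasma proteins, the class to which ALB belongs, none rose and 9 fell, with a median of -0.47. Earlier results of these data had shown several of these falls, so the count is no independent support. Summed over the 16 genes, untreated libraries held 24271 to 43744 units and treated libraries 16360 to 36602 units, which overlap. All 16 had a mean of 1 unit or more, from 5.67 units for A1BG to 14776 units for APOB, so RNA of each was detected in the line.

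Of 10 tested glypican and heparan sulfate genes, the group of GPC3, 1 rose and 4 fell, with a median of -0.10. SDC4, a syndecan, rose by 0.71, while NOTUM, an enzyme that acts on Wnt proteins and glypicans, fell by 0.39 and SDC2 by 0.26. GPC1 and EXT2, named after their values were seen, fell by 0.28 and 0.20. Of 6 other SOX genes none was called, with a median of -0.05. Of 13 tested genes near PEG10 or imprinted like it, 2 rose and 2 fell, with a median of -0.02. PON2 rose by 0.43 and GRB10, named after its values were seen, by 0.40, and PEG3 and PLAGL1 changed by -0.35 and -0.28.

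Markers of other liver cell types moved in part with palmitic acid beside these genes. Of 3 tested stellate and fibroblast markers, TAGLN (1.25) and PDGFRB (1.12) rose and ACTA2 (-0.56) fell, and their summed level with 2 more was 59.4 to 125 units untreated and 68.4 to 134 units treated. None of 3 biliary markers was called, with sums of 288 to 419 units untreated and 286 to 395 treated. Of 3 macrophage markers CD14 fell (-1.03), with sums of 392 to 914 and 399 to 1060 units that were mostly LYZ, and of 2 endothelial markers PECAM1 fell (-0.59), with sums of 9.66 to 31.2 and 8.72 to 33.6 units. COL1A2, LRAT, KRT7, CD163, MARCO, VWF and CLEC4G were not analysed here, and COL1A1, DES and STAB2 had means under 1 unit. Their part in the results on AFP, ALB and SOX4 was not tested.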

How the data were processed

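RNA was measured in 16 HepG2 libraries. Per the labels' protocols, TRIzol and a purification kit were used for total RNA, and MGIEasy kits for rRNA depletion and directional libraries. Per the submitters' processing notes, Trimmomatic 0.38, RSEM 1.3.0, Bowtie2, edgeR and build hg38 were used. The sources used here do not give the annotation, the gene filter or the rounding of counts. The table the authors deposited gives a normalized signal of 16558 genes. In each library all values were whole multiples of the smallest one (100% whole, tolerance 0.01 reads). Recomputed CPM with TMM scaling differed from the deposited signal by at most 1.33e-15 of the value.

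The 13095 genes at a mean of 1 unit or more were tested on log2(value + 0.5) with limma 3.58.1 (R 4.3.3) and a mean-variance trend, two-sided, with Benjamini-Hochberg adjustment at 0.05 over all of them. The design took these as normalized values. Recovered reads went to edgeR 4.0.16 and DESeq2 1.42.0 as alternatives only. The palmitic acid response used 6 group means (10 residual degrees of freedom), and genotypes were compared on 8 clone averages (5). A second fit had the clone as a block (5). Libraries with the same genotype and number are the same clone, so the pairing comes from the labels. Deviations from the group means correlated at 0.523 to 0.857 within clones, and the best match was the clone's own partner in 8 of 8. Deviations cancel out within a group, which sets clones of a group apart by construction. For the same reason CC1 and CC3 share 1 value, 0.744, so these matches are weak support for the pairing.

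The 8 genes and the other lists were chosen with earlier results of these data known. Named genes were the 8, up to 3 genes with the smallest p of each list, and for each member the 2 genes most alike, of which 1 is given. Gene positions are from GENCODE release 29 on GRCh38, and the steps were tested on simulated data. Nothing in the labels says that libraries of a clone were replicated, so spread between clones and noise of single libraries cannot be told apart. With no block and on clone averages, p-values are set against the spread of levels between clones of a genotype. With the block, they are set against the spread of the palmitic acid changes between clones of a genotype. Other pseudocounts, filters, scalings, tests and left-out clones were tried. RefSeq promoters were matched for 5 of the 8 genes.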

Additional observations from a re-analysis of the deposited data

Results flagged for a closer look

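The values of the 8 genes were checked in 24 groups of 8 (untreated libraries, treated libraries and clone changes) for a single value far from the rest, by the gap to the nearest value over the whole range, against a critical value of 0.526. Chance flags about 1 in 20 groups. For the change of AFP with palmitic acid, clone CC3 stood apart with a share of 0.623. For ALB, the untreated GC2 library stood apart with 0.559. For GPC3, clone GC4 stood apart with 0.927 among untreated and 0.903 among treated libraries.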

How the results depend on the processing

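The clone block raised the 4 counts for the palmitic acid response and left the count for its difference between genotypes at 1; it was not applied to the genotype contrasts, which use clone averages. For the palmitic acid response over genotypes the count was 6, and 2469 with the replicate block, 2459 with the block and equal weight to clones, 2506 with the block and median-of-ratios scaling, 2359 with the block and plain totals, 2418 with edgeR and the block, 108 with DESeq2, 2 with edgeR, 12 with no filter and 2 at a pseudocount of 0.1; the range was 0 to 3753 when a library or clone was left out. In GG clones it was 0, and 110 with the block, 110 and 74 with the block under the other scalings, 108 with edgeR and the block, 1 with DESeq2, and 0 to 472 with a library or clone left out. In GC clones it was 0, and 202, 190, 158, 197 and 2 in the same order, and 0 to 765. In CC clones it was 1, and 301, 269, 199 and 215 with the block, 0 with DESeq2 or edgeR, 16 with no filter, and 1 to 2082. For the difference between genotypes it was 1, and 0 with DESeq2, with edgeR with or without the block and at a pseudocount of 0.1, 12 with no filter, and 0 to 190. Between genotypes it was 0, and DESeq2 called 22, 2 and 7 genes for GG against GC, GG against CC and GC against CC. For each of the last 2 contrasts, no filter gave 2 and treated libraries alone 1, and GG against CC gave 0 to 1 with a clone left out.

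The clone block turned the calls of AFP, ALB and SOX4 over genotypes, and of SOX4 in CC clones, and changed no other call of the 8 genes; median-of-ratios or plain totals with the block, chosen after seeing the data, kept them. All 58 member values that passed only under an alternative came from fits with the block. With a clone left out, the block kept SOX4 over genotypes between 0.56 and 0.70 and AFP between -0.72 and -0.36. The call of SOX4 in CC clones was not kept in every such fit.

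The reversed values, and the values with no block or on clone averages that they turned from, did not pass. With the block and a clone left out, AFP in CC clones, SOX4 in GC clones and PEG10 over genotypes passed in some fits. Among genotype differences, GG against GC turned for AFP to 0.14 in treated libraries and for PEG10 to 0.31 with edgeR and 0.31 with DESeq2. GG against CC turned for GPC3 to 0.11 in treated libraries, and in untreated ones for SOX4 to 0.11 and IGF2BP3 to -0.049. GC against CC turned for ALB to 0.28 with edgeR and 0.27 with DESeq2, and for SOX4 to 0.24 with edgeR, 0.24 with DESeq2 and 0.17 in untreated libraries. With a clone left out, GG against GC ran from -0.42 to 0.47 for AFP, -0.34 to 3.72 for GPC3, -0.49 to 0.37 for SOX4 and -1.62 to 0.42 for PEG10. GG against CC ran from -0.59 to 1.24 for AFP, -0.15 to 0.058 for GPC3, -0.48 to 0.10 for SOX4, -0.047 to 0.21 for IGF2BP3 and -0.70 to 1.34 for PEG10. GC against CC ran from -0.59 to 1.25 for AFP, -1.14 to 0.79 for ALB, -3.79 to 0.26 for GPC3, -0.59 to 0.27 for SOX4 and -0.34 to 0.021 for LIN28B. With single libraries left out, which breaks the pairing, the response over genotypes ran from -1.03 to 0.76 for GPC3, -0.083 to 0.0046 for IGF2BP1 and -0.17 to 0.59 for PEG10. It ran from -0.73 to 0.22 for AFP and -1.07 to 0.45 for ALB in GG clones, -1.57 to 0.78 for ALB and -0.082 to 1.01 for SOX4 in GC clones, and -2.05 to 0.33 for AFP in CC clones. The cause of these turns was not tested.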
